A study of Homo sapiens with 688 samples.

Results

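The genes described here are 40 genes of the mitotic spindle, cytokinesis, chromosome condensation and mitotic entry, chosen by their gene symbols in every count table of the study. All 40 symbols were found, among 28430 symbols in the tables of BT20 cells and 23710 symbols in those of U87 and LnCAP cells. By role they were 15 spindle and microtubule genes, 8 genes of the spindle midzone and cytokinesis, 8 condensin subunits, 3 genes of the chromosome surface, chromatin and cohesion, 4 genes of mitotic entry and 2 others (SAPCD2 and PIF1). Expression was measured with PLATE-Seq, in which the mRNA of each well is captured on an oligo(dT) plate (LnCAP in part by another route, given below), reverse transcribed with a barcoded oligo(dT) primer and sequenced in a pool, so that reads fall near the 3′ ends of transcripts.

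BT20 is a human breast carcinoma line. A single plate of 96 BT20 wells held 8 conditions of 12 wells each, kept for 6 h with DMSO or with Idarubicin at 0.084 µM, Mitoxantrone at 0.18 µM, Bortezomib at 0.044 µM, Crizotinib at 7.16 µM, Albendazole at 0.56 µM, Aprepitant at 2 µM or Gemcitabine at 0.194 µM. The remaining lysate of these wells was combined into 16 pools, 2 for each condition and each of 6 wells, and sequenced by conventional TruSeq poly(A) RNA-Seq. The pools are therefore a second measurement of the same cultures and not new cultures. Lane and drug cannot be told apart for 4 drugs in TruSeq: both pools of Mitoxantrone, Crizotinib, Albendazole and Idarubicin were on one lane, and both DMSO pools on the other. U87 is a human glioma line. It was treated for 24 h with 184 compounds, each in 2 wells on separate plates, beside 8 DMSO and 8 untreated wells, over 384 wells on 4 plates in 2 sets. LnCAP is a human prostate carcinoma line, measured untreated in the remaining wells of the 688 samples, on 2 plates of 96 wells, PE098-A1 and PE098-A2. By the study's methods the lysate of 1 culture plate was split, with one part captured on the oligo(dT) plate and the other purified on RNeasy columns and then with oligo(dT) beads. By that account both plates hold the same 96 cultures. The labels do not say which plate had which purification, and LnCAP values are given for each plate. Doses were chosen by their effect on viability or growth, and U87 lysates of a pair of culture wells were combined before capture. Nothing states that the BT20, U87 or LnCAP wells came from separate passages, also where U87 wells of a compound were on separate plates. The p-values therefore measure the spread between wells.

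Total counts were 367848 to 1317952 per BT20 well, with 1 DMSO well under 0.5 of the plate median, and 16881740 to 29068232 per TruSeq pool. They were 17063 to 1537549 in U87, where 21 wells of 15 compounds were under 0.5 of the median of their plate, and 19448 to 1277169 in LnCAP. The summed level of 7 epithelial breast line markers was 4436 to 5187 counts-per-million (CPM) in the BT20 DMSO wells and 4.54 to 28.6 CPM in the U87 control wells. The 6 glioma and mesenchymal markers summed to 1529 to 5566 CPM in U87, against 110 to 219 CPM in BT20, where SPARC and NES were at 0. The 6 prostate markers summed to 1313 to 3342 CPM in LnCAP, and KLK3, KLK2, TMPRSS2 and FOLH1 were at 0 in the BT20 DMSO wells.

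As background, cells build many, but not all, of these products late in the cycle. The mRNAs of such genes rise in G2 and mitosis and are low in cells that have stopped in G1. TPX2, HMMR, NUSAP1, CKAP5 and TACC3 help to nucleate or stabilise spindle microtubules, PRC1 bundles the overlapping microtubules of the midzone, and ECT2, RACGAP1, ANLN and CEP55 act in the contractile ring and abscission. Condensin I and II share the SMC2 and SMC4 ATPases and differ in their other subunits (NCAPH, NCAPG and NCAPD2 in condensin I, NCAPH2, NCAPG2 and NCAPD3 in condensin II). The CDC25 phosphatases activate cyclin-dependent kinases, CDC25A at G1/S as well as at mitosis. Many promoters of late cell cycle genes carry a CHR element close to the start site, often with CCAAT boxes upstream, and are repressed through it by the DREAM complex in arrested cells.

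Promoter sequences are shown because most of these genes moved together in the comparisons below, and that of CDC25A as an example without a CHR match. RefSeq windows (GRCh38.p14) of 300 bases, 250 before and 50 after each start site, were at hand for 34 of the 40 genes. A CHR, searched as TTTGAA or TTCGAA on both strands, was found in 29 of the 34 (85.3%), against 19.5% of the 27305 genes with a window. A CCAAT box, searched as CCAAT on both strands, was found in 24 (70.6%, against 39.7%), and both in 22 (64.7%, against 9.02%). Matches may overlap each other and were counted separately. The 5 genes with a window and no CHR match were ARHGAP11A, CDC25A, CKAP2, NCAPH and TACC3. The 250 bases before the start site are given 5′ to 3′ on the gene's strand for 4 genes, with every CHR and CCAAT match in capitals (ATTGG and TTCAAA are the reverse complements).
PSRC1, chr1:109283146-109283395, minus strand: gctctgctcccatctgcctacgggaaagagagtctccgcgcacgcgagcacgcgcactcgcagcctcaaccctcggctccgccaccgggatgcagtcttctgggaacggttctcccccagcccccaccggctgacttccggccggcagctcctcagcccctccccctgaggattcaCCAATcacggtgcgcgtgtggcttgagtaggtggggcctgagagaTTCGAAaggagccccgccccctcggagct
HMMR, chr5:163460382-163460631, plus strand: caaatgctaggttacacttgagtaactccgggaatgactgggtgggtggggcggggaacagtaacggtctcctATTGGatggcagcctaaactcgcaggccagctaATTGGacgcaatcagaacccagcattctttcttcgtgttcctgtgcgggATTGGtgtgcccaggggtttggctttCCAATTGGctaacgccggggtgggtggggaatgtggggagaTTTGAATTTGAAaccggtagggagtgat
PRC1, chr15:90994536-90994785, minus strand: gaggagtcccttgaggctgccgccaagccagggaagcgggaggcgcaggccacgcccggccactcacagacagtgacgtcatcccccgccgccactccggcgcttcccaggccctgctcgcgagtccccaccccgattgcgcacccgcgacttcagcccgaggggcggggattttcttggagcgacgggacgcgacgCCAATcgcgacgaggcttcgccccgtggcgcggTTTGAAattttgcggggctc
CDC25A, chr3:48188418-48188667, minus strand: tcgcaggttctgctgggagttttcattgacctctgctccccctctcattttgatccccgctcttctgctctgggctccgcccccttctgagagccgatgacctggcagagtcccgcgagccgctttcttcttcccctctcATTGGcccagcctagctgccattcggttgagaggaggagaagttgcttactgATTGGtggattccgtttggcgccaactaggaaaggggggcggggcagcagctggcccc
The CHR of PSRC1 begins 29 bases before the start site, the 2 abutting CHR matches of HMMR begin 28 and 22 bases before it, and that of PRC1 begins 20 bases before it. The CDC25A window holds 2 CCAAT boxes and no CHR match. Whether the match goes with the direction of change was not tested, and few genes were higher. CDCA5, which like CDC25A was higher with Idarubicin in TruSeq, has a CHR 26 bases before its start site and no CCAAT box. ARHGAP11A, CKAP2 and TACC3 have no CHR match and fell with Idarubicin. NCAPH2, the other gene that was higher, had no window at hand. These are letter matches and no evidence of binding. On GRCh37, the build of the count tables, PSRC1 lies on chromosome 1 from 109822178 to 109825808 (minus strand) and HMMR on chromosome 5 from 162887209 to 162918947 (plus strand). PRC1 lies on chromosome 15 from 91509270 to 91538859 and CDC25A on chromosome 3 from 48198636 to 48229907, both on the minus strand. TPX2 (30327074 to 30389608) and FAM83D (37554955 to 37581749) lie on the plus strand of chromosome 20, and CKAP5 lies on the minus strand of chromosome 11 (46764598 to 46867859).

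The summed level of the 40 genes was of the same order in the 3 lines. It was 2678 to 3074 CPM in the 12 BT20 DMSO wells, 1854 to 3387 CPM in the 16 U87 DMSO and untreated wells, 1843 to 3047 CPM in the wells of LnCAP plate PE098-A1 and 2329 to 3964 CPM in those of PE098-A2. A mean of at least 5 CPM was reached by 39 genes in BT20, 37 in U87 and 38 in LnCAP. The tables of the lines were made and scaled separately, so the levels across lines are given side by side and were not tested. FAM83D, which brings kinesin KID to the spindle, was at 105.5 ± 20.0 CPM (SD, n = 12) in BT20, 22.6 ± 12.2 in U87 DMSO wells (n = 8) and 17.4 ± 9.91 and 22.01 ± 10.1 on the LnCAP plates PE098-A1 and PE098-A2 (n = 96 each). ASPM, a spindle pole protein, was at 62.3 ± 17.3, 57.6 ± 18.5, 13.6 ± 8.98 and 14.2 ± 8.39 CPM in the same order. MKI67, which encodes the Ki-67 protein of the chromosome surface, was at 55.4 ± 15.5, 142.6 ± 38.0, 45.05 ± 15.7 and 53.5 ± 17.5 CPM. NUSAP1 was at 184.9 ± 40.7, 197.7 ± 30.4, 424.3 ± 106.7 and 406.8 ± 113.5 CPM. SAPCD2, a spindle orientation factor, was at 351 ± 49.4, 132.4 ± 56.2, 264.2 ± 55.8 and 934.7 ± 150.8 CPM, and all wells of PE098-A2 (411.4 to 1337 CPM) lay above all those of PE098-A1 (134.6 to 400.7 CPM). KIFC1, a minus-end directed kinesin, was low in the PLATE-Seq counts of all lines (4.46, 1.65, 1.56 and 1.34 CPM). It was not low in the TruSeq pools of the same BT20 cultures, as given below, so its PLATE-Seq level is no measure of its expression. NUSAP1, PRC1, SPAG5, ARHGAP11A and NCAPH2 share exon bases with another annotated gene on the same strand, and their values are uncertain to that extent.

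In BT20 cells, Idarubicin and Mitoxantrone, both topoisomerase II poisons, lowered most of the measured spindle and midzone genes within 6 h in PLATE-Seq and TruSeq. Of the condensin subunits they lowered 2 and 1 of the 7 tested in PLATE-Seq. Bortezomib, a proteasome inhibitor, lowered 5 genes in PLATE-Seq. Crizotinib, a MET and ALK kinase inhibitor, raised PSRC1, and in PLATE-Seq no gene passed the test with Albendazole, Aprepitant or Gemcitabine. Each drug's 12 wells were compared with the 12 DMSO wells by the quasi-likelihood test of edgeR over all genes that passed the low-count filter, and a gene was called at a Benjamini-Hochberg adjusted p under 0.05. The filter kept 33 to 35 of the 40 genes, depending on the drug. KIFC1, CDCA2, DEPDC1B and CDC25C passed with no drug, CDC25A passed with Idarubicin and Gemcitabine only, NCAPG2 with Bortezomib only, PIF1 not with Bortezomib, Idarubicin or Mitoxantrone, and DLGAP5 not with Idarubicin. All 40 were tested in TruSeq, where the quasi-likelihood fit held all 16 pools.

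**Figure D1:**
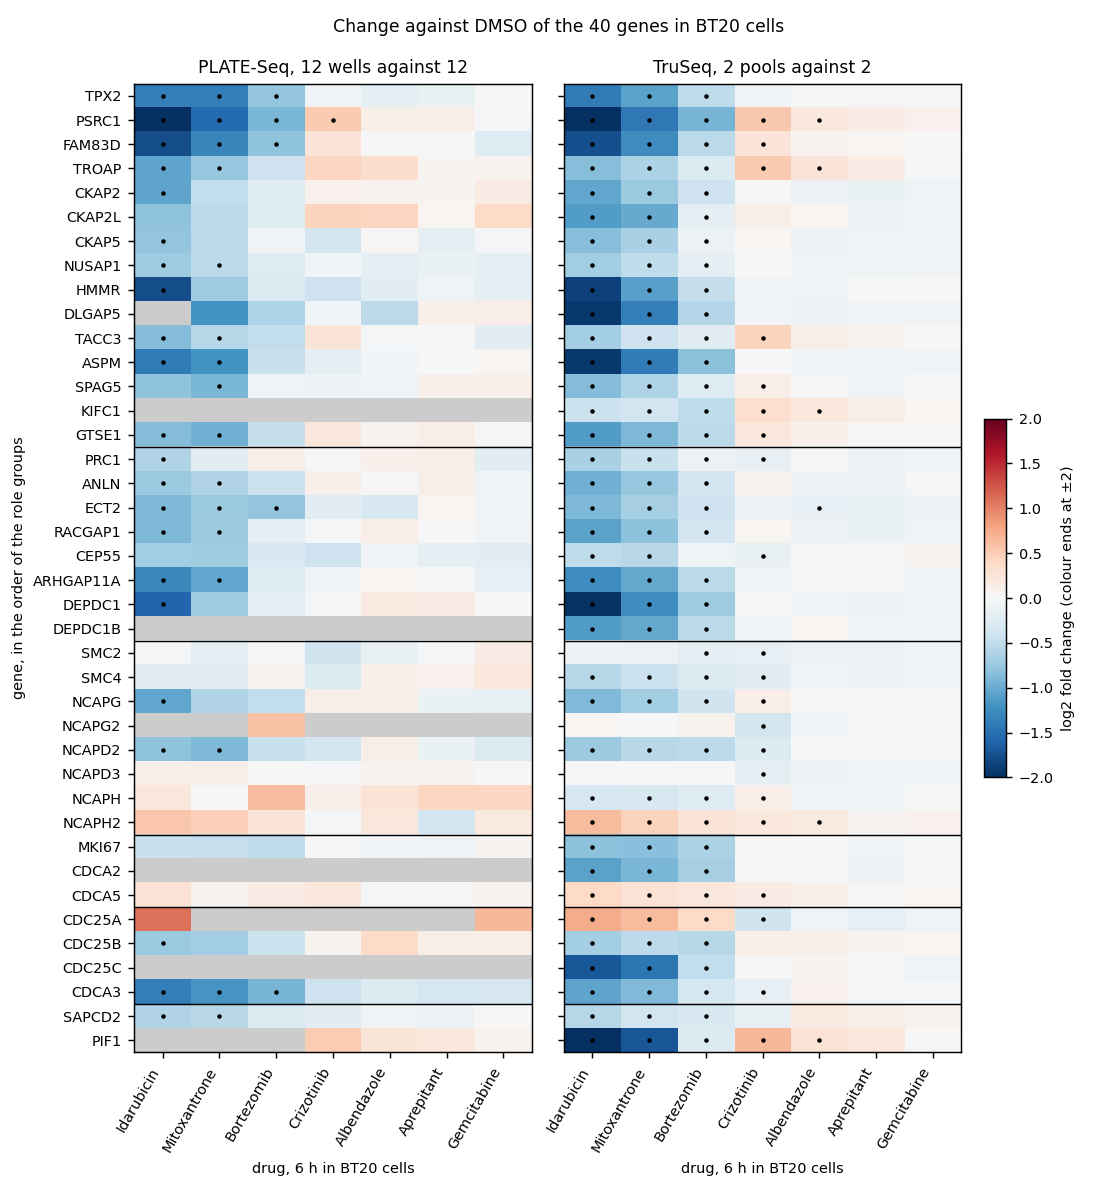
Log2 fold change against DMSO of each of the 40 genes (rows, by role) for the 7 BT20 drugs (columns), in PLATE-Seq (left) and TruSeq (right), with the colour scale ending at -2 and 2. Dots mark genes called at an adjusted p under 0.05 and grey marks genes not tested. The Idarubicin and Mitoxantrone columns are mostly blue in both assays, with 22 and 16 genes called lower in PLATE-Seq and 34 each in TruSeq.

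With Idarubicin, 22 of the 33 tested genes fell and none rose, where 1.93% of the 6586 genes tested fell and 0.850% rose. At an unadjusted p under 0.05, 27 were lower and 2 higher, and DESeq2 called 24 lower and 0 higher. The median log2 fold change of the 33 genes was -0.80, against medians within 0.01 of 0 over all genes tested. Of the 13 spindle genes tested 11 fell (TPX2, PSRC1, FAM83D, TROAP, CKAP2, CKAP5, NUSAP1, HMMR, TACC3, ASPM and GTSE1), with a group median of -1.05. Of the 7 midzone and cytokinesis genes 6 fell (PRC1, ANLN, ECT2, RACGAP1, ARHGAP11A and DEPDC1), with a median of -0.89. Of the 7 condensin subunits tested only NCAPG and NCAPD2 of condensin I fell, and the median was -0.02. CDC25B and CDCA3, an adaptor for degradation of the mitotic inhibitor WEE1, fell, as did SAPCD2. In such bulk wells, fewer cells in G2 and mitosis and less of these mRNAs per cell cannot be told apart.

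PSRC1, which acts on spindle microtubules, had a lowest, median and highest level of 60.0, 110.8 and 138.6 CPM in the DMSO wells and 5.23, 20.5 and 34.9 CPM with Idarubicin. All 12 Idarubicin wells were below all DMSO wells, and the log2 fold change was -2.29 ± 0.19 (SE), with an adjusted p of 2.28e-15 in edgeR's quasi-likelihood test. FAM83D was at 75.3, 106.9 and 138.4 CPM with DMSO and at 16.4, 25.7 and 54.3 CPM with Idarubicin, also without overlap (log2 fold change -1.78 ± 0.17, adjusted p 1.25e-12). CKAP2 was at 67.6, 90.8 and 141.4 CPM with DMSO and 27.2, 45.5 and 67.3 CPM with Idarubicin (-1.05 ± 0.16, adjusted p 2.53e-06). These 3 were the members whose wells did not overlap, where 0.243% of all genes tested had all 12 Idarubicin wells below the 12 DMSO wells.

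The other members overlapped in at least 1 well. TPX2, the activator of Aurora A at the spindle, was at 73.0, 112.7 and 168.1 CPM with DMSO and 10.5, 42.8 and 78.5 CPM with Idarubicin (log2 fold change -1.37 ± 0.19, adjusted p 1.89e-07). In 11 of its 12 Idarubicin wells it lay below every DMSO well. ASPM was at 36.6, 63.6 and 82.9 CPM with DMSO and 9.45, 21.3 and 42.9 CPM with Idarubicin (-1.39 ± 0.22, adjusted p 7.73e-06). HMMR, a spindle assembly factor that binds TPX2, was at 15.5, 27.9 and 48.7 CPM with DMSO and 2.29, 5.89 and 20.9 CPM with Idarubicin (-1.77 ± 0.32, adjusted p 1.23e-04), with 10 wells below the DMSO range. CDCA3 was at 31.0, 51.9 and 88.0 CPM with DMSO and 1.89, 21.9 and 31.9 CPM with Idarubicin (-1.38 ± 0.23, adjusted p 2.91e-05).

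Smaller falls were measured for other members, with more overlap between wells. TROAP was at 51.7, 124.3 and 212.2 CPM with DMSO and 33.5, 53.4 and 80.1 CPM with Idarubicin (-1.05 ± 0.17, adjusted p 5.08e-06), and only 5 wells lay below the DMSO range. NUSAP1 was at 133.5, 169.6 and 284.5 CPM with DMSO and 84.0, 99.3 and 156.7 CPM with Idarubicin (-0.71 ± 0.13, adjusted p 5.39e-05). SAPCD2 was at 237.1, 349.4 and 446.3 CPM with DMSO and 153.4, 217.5 and 288.8 CPM with Idarubicin (-0.60 ± 0.11, adjusted p 1.16e-04). NUSAP1 lay below the DMSO range in 10 wells and SAPCD2 in 7. PRC1 was at 104.7, 177.1 and 332 CPM with DMSO and 46.0, 123.8 and 147.3 CPM with Idarubicin, with 4 wells below the DMSO range (-0.61 ± 0.14, adjusted p 5.78e-03). CDC25B, the phosphatase that starts CDK1 activation, was at 39.7, 64.4 and 98.01 CPM with DMSO and 19.9, 35.1 and 58.3 CPM with Idarubicin (-0.74 ± 0.19, adjusted p 0.0126).

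The shared condensin subunits did not pass the test with Idarubicin in PLATE-Seq. SMC4 had a median of 217.6 CPM and a highest well of 304.3 CPM with DMSO and was at 149.9, 192.9 and 239.96 CPM with Idarubicin, with 5 wells below the DMSO range (-0.22 ± 0.10, adjusted p 0.37). SMC2 had a log2 fold change of -0.02, and the condensin II subunits NCAPD3 and NCAPH2 had 0.09 and 0.55. MKI67 was at 27.3, 54.0 and 79.8 CPM with DMSO and 15.7, 36.2 and 61.8 CPM with Idarubicin (-0.44 ± 0.21, adjusted p 0.37). Of the members outside the named-gene rule, NCAPH2 and CDC25A are given after their values were seen.

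**Figure D2:**
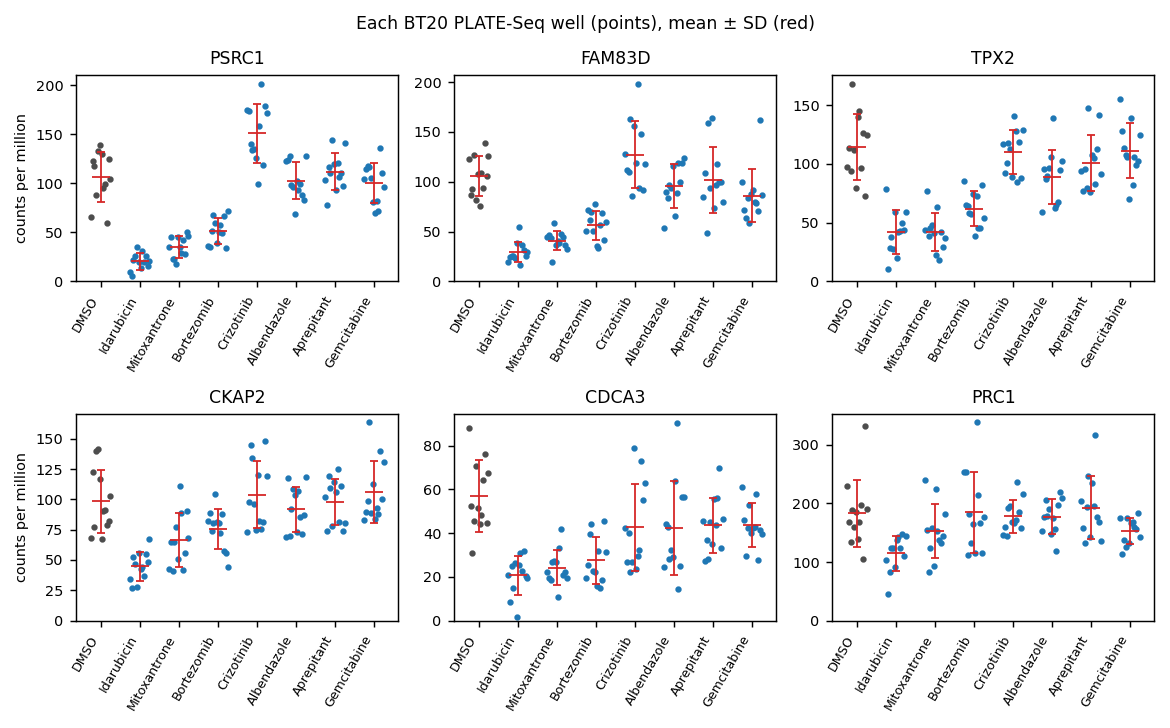
CPM of PSRC1, FAM83D, CKAP2, TPX2, CDCA3 and PRC1 in each of the 12 PLATE-Seq wells of every BT20 condition (points), with the mean and SD in red. PSRC1 and FAM83D wells with Idarubicin and Mitoxantrone lie wholly under the DMSO wells, while PRC1 wells overlap in every condition.

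The TruSeq pools of Idarubicin gave lower values for 34 of the 40 genes and higher values for 3, where 18.4% of the 14970 genes tested were lower and 18.9% higher. The median log2 fold change of the 40 genes was -0.87. All 22 genes called lower in PLATE-Seq were called lower in TruSeq, and all 15 spindle and all 8 midzone genes were lower. PSRC1 was at 23.9 and 22.3 CPM in the Idarubicin pools and 91.3 and 96.9 CPM in the DMSO pools (log2 fold change -2.04 ± 0.06, adjusted p 3.27e-24). ASPM was at 86.7 and 83.6 CPM against 326.1 and 312.9 CPM (-1.93), and HMMR had a log2 fold change of -1.87. TruSeq also called genes that PLATE-Seq had not. SMC4 had a log2 fold change of -0.57 and MKI67 of -0.83 with Idarubicin.

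Further TruSeq genes are named after their values were seen. PIF1, a DNA helicase that acts at telomeres and replication forks, was at 8.03 and 7.40 CPM in the Idarubicin pools and 66.1 and 65.1 CPM in the DMSO pools (log2 fold change -3.11 ± 0.08, adjusted p 1.15e-24). DEPDC1 was at 27.4 and 29.1 CPM against 111.98 and 106.9 CPM (-1.97), and DLGAP5, a kinetochore fibre protein, at 32.5 and 31.9 CPM against 123.6 and 118.6 CPM (-1.93). CDC25C, the mitotic phosphatase, was at 6.41 and 6.50 CPM against 20.7 and 20.8 CPM (-1.70). The fall of KIFC1 was smaller, from 116.2 and 122.8 CPM to 91.8 and 88.0 CPM (-0.43).

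The 3 genes that were higher were CDC25A, CDCA5 and NCAPH2. CDC25A was at 51.2 and 50.7 CPM with Idarubicin and 31.2 and 28.9 CPM with DMSO (0.74 ± 0.06, adjusted p 1.69e-11). CDCA5, the cohesion factor sororin, was at 145.04 and 140.6 CPM against 109.1 and 104.3 CPM (0.40, adjusted p 2.24e-08). NCAPH2 was at 80.8 and 78.1 CPM against 49.0 and 52.7 CPM (0.63, adjusted p 9.89e-11). NCAPH2 shares exon bases with SCO2 on the opposite strand, and the strandedness of the TruSeq counts is not given in the sources used here. Of the 8 condensin subunits 4 were lower, NCAPH2 was higher, and SMC2, NCAPG2 and NCAPD3 were not called.

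With Mitoxantrone, 16 of the 33 tested genes fell and none rose, where 1.05% of the 6276 genes tested fell and 0.159% rose. At an unadjusted p under 0.05, 27 were lower and 1 higher, and DESeq2 called 17 lower and 0 higher. The median log2 fold change of the 33 genes was -0.67. Of the spindle genes 9 of 14 fell (TPX2, PSRC1, FAM83D, TROAP, NUSAP1, TACC3, ASPM, SPAG5 and GTSE1), with a median of -0.83. Of the midzone genes 4 of 7 fell (ANLN, ECT2, RACGAP1 and ARHGAP11A), and of the condensin subunits 1 of 7 (NCAPD2). CDCA3 and SAPCD2 fell as well.

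PSRC1 was at 17.4, 34.9 and 49.9 CPM (lowest, median and highest) in the Mitoxantrone wells, all below the DMSO wells (-1.55 ± 0.17, adjusted p 7.46e-10). FAM83D was at 19.7, 42.0 and 58.6 CPM, again without overlap (-1.32 ± 0.16, adjusted p 1.36e-08). These were the 2 members without overlap, where 0.127% of all genes tested had none. TPX2 was at 18.3, 41.7 and 76.8 CPM (-1.37 ± 0.17, adjusted p 3.72e-08), ASPM at 11.9, 27.5 and 37.9 CPM (-1.20 ± 0.21, adjusted p 8.02e-05) and CDCA3 at 10.7, 22.2 and 42.1 CPM (-1.17 ± 0.21, adjusted p 1.56e-04). In each of the 3, 10 or 11 wells lay below the DMSO range.

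Other Mitoxantrone wells overlapped more with DMSO. SAPCD2 was at 162.9, 227.2 and 308.8 CPM (-0.55 ± 0.10, adjusted p 2.13e-04) and RACGAP1, which forms the centralspindlin complex, at 37.1, 48.2 and 65.0 CPM against 48.9, 83.9 and 111.5 CPM with DMSO (-0.72 ± 0.16, adjusted p 3.73e-03). NCAPD2 was at 16.2, 27.7 and 45.3 CPM against 29.9, 52.7 and 84.3 CPM (-0.90 ± 0.20, adjusted p 6.96e-03). All 3 lay below the DMSO range in 8 wells. GTSE1 was at 12.7, 30.9 and 55.2 CPM against 20.6, 60.7 and 92.3 CPM, with 3 wells below the range (-0.96 ± 0.21, adjusted p 5.70e-03), and TROAP was at 35.7, 76.9 and 90.1 CPM (-0.75 ± 0.17, adjusted p 5.29e-03). NUSAP1 was at 69.3, 122.5 and 199.2 CPM (-0.52 ± 0.13, adjusted p 0.0202).

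The leading members of the other role groups did not pass with Mitoxantrone in PLATE-Seq. PRC1 was at 83.8, 149.2 and 239.5 CPM (-0.21 ± 0.15, adjusted p 0.75), SMC4 had -0.23, MKI67 -0.46 and CDC25B -0.67 (adjusted p 0.0598). TruSeq gave 34 genes lower and 3 higher, where 15.1% of genes tested were lower and 15.6% higher, and all 16 genes called in PLATE-Seq were among the 34. The 3 higher genes were CDC25A (49.6 and 46.1 CPM, log2 fold change 0.63), CDCA5 (0.29) and NCAPH2 (0.45). PIF1 was at 21.2 and 19.9 CPM in the Mitoxantrone pools (-1.72) and DEPDC1 at 47.8 and 47.1 CPM (-1.25).

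With Bortezomib, 5 of the 34 tested genes fell and none rose, where 1.99% of the 6330 genes tested fell and 2.94% rose. DESeq2 called 5 lower and 0 higher, and 16 were lower and 0 higher at an unadjusted p under 0.05. The 34 genes had a median log2 fold change of -0.29. The 5 were TPX2, PSRC1, FAM83D, ECT2 and CDCA3. None of the 8 condensin subunits tested was called, with a median of 0.03. PSRC1 was at 34.5, 50.8 and 71.6 CPM, with 9 wells below the DMSO range (-0.92 ± 0.16, adjusted p 3.03e-05). FAM83D was at 33.9, 58.0 and 77.1 CPM, with 11 wells below it (-0.80 ± 0.15, adjusted p 1.71e-04). TPX2 was at 38.9, 60.8 and 85.6 CPM, with 9 wells below it (-0.77 ± 0.15, adjusted p 2.19e-04).

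CDCA3 was at 15.1, 24.2 and 45.6 CPM (-0.93 ± 0.21, adjusted p 1.76e-03) and ECT2, the exchange factor for RhoA at the cleavage furrow, at 12.6, 41.7 and 60.8 CPM against 36.4, 79.7 and 114.5 CPM with DMSO (-0.78 ± 0.21, adjusted p 0.0130). No gene of the 34 had all its Bortezomib wells below all DMSO wells, against 0.190% of all genes tested. PRC1 was at 111.5, 170.9 and 338.1 CPM, with 1 well above and none below the DMSO range (0.12, adjusted p 0.83). In TruSeq, 34 of the 40 genes were lower and 3 higher (CDC25A, CDCA5 and NCAPH2), where 19.6% of genes tested were lower and 21.3% higher. The falls were smaller than those with Idarubicin for the genes named above, with PSRC1 at -0.94, FAM83D at -0.54, TPX2 at -0.51 and PIF1 at -0.27. Whether these differences between drugs exceed the spread was not tested.

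The summed level of the 40 genes in PLATE-Seq was 2910 ± 123.1 CPM (SD, n = 12 in each group) with DMSO, 1688 ± 134.3 with Idarubicin, 1878 ± 139.1 with Mitoxantrone and 2211 ± 171.9 with Bortezomib. The wells of these 3 drugs lay at 1543 to 1967, 1662 to 2152 and 1986 to 2507 CPM, all below the lowest DMSO well. The sums with Crizotinib, Albendazole, Aprepitant and Gemcitabine were 2881 ± 203, 2655 ± 186.8, 2821 ± 194 and 2794 ± 218 CPM. In TruSeq the sums were 8324 and 8371 CPM with DMSO and 4900 and 4920 CPM with Idarubicin.

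With Crizotinib, PSRC1 was the only one of 34 tested genes that rose and none fell, where 1.09% of the 5867 genes tested rose and 0.954% fell. DESeq2 called 1 higher and 0 lower, and 3 were higher and 3 lower at an unadjusted p under 0.05. It was at 99.4, 149.7 and 201.3 CPM, with 7 wells above the highest DMSO well (0.52 ± 0.14, adjusted p 0.0236). In TruSeq, PSRC1 was at 134.6 and 130.8 CPM against 91.3 and 96.9 CPM (0.53 ± 0.05, adjusted p 2.71e-10). No gene had all its Crizotinib wells below all DMSO wells, against 0.170% of genes tested. TruSeq called 12 genes higher and 9 lower, where 21.6% of genes tested were higher and 20.6% lower, and the median of the 40 genes was 0.00. The 12 included 7 of 15 spindle genes (PSRC1, FAM83D, TROAP, TACC3, SPAG5, KIFC1 and GTSE1), while 5 of 8 condensin subunits were lower (SMC2, SMC4, NCAPG2, NCAPD2 and NCAPD3) and 3 higher. With so many genes called in both directions over all genes, this split by role is only a description. Lane and drug cannot be told apart for these pools. CDC25A, higher with the topoisomerase II poisons, was lower with Crizotinib (-0.39).

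Albendazole, an anthelmintic that binds tubulin, gave 0 of 34 called genes in PLATE-Seq, where 0.0167% of the 5990 genes tested were lower and 0.0835% higher, and no wells without overlap. edgeR gave 3 genes higher and 0 lower at an unadjusted p under 0.05, and DESeq2 called 0. The 2 smallest p-values were those of TROAP (103.6, 135.1 and 170.7 CPM, 0.35 ± 0.14) and CDC25B (54.4, 67.4 and 99.3 CPM, 0.39 ± 0.17), both with an adjusted p of 0.89 and with wells inside or overlapping the DMSO range. In TruSeq, PSRC1, TROAP, KIFC1, NCAPH2 and PIF1 were called higher and ECT2 lower, with log2 fold changes of at most 0.30, where 7.00% of genes tested were higher and 4.30% lower. TROAP was at 135.3 and 130.8 CPM against 112.2 and 111.6 CPM (0.26, adjusted p 2.18e-03). The 5 higher calls came to 0 without the Albendazole pool of replicate 1 and to 1 without the DMSO pool of replicate 1, and the single lower call to 4 without either Aprepitant pool.

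Aprepitant, a blocker of the neurokinin 1 receptor, and Gemcitabine, a nucleoside analogue, gave 0 called genes in PLATE-Seq, where 0% of all genes tested were called in either direction. In edgeR and DESeq2 neither drug had a member at an unadjusted p under 0.05 or an adjusted call. With Aprepitant the smallest p-values were those of CDCA3 (27.1, 44.3 and 69.8 CPM, -0.35 ± 0.18) and NCAPH2 (7.33, 22.8 and 44.1 CPM, -0.38 ± 0.27). With Gemcitabine they were those of SMC4 (173.7, 263.6 and 357 CPM, 0.21 ± 0.11) and FAM83D (59.0, 81.2 and 161.7 CPM, -0.26 ± 0.14). All 4 overlapped the DMSO wells, with adjusted p of 0.87 to 0.97. In TruSeq both drugs had 0 members called, where 0.601% of genes tested were lower and 1.22% higher with Aprepitant and 0% with Gemcitabine. At an unadjusted p under 0.05 edgeR gave 9 lower and 4 higher with Aprepitant and 2 lower with Gemcitabine, and DESeq2 called 0. Without the Aprepitant pool of replicate 2, 4 members were lower and 2 higher.

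Other gene lists of the cell cycle moved alongside with Idarubicin in PLATE-Seq, where 1.93% of all genes fell and 0.850% rose. Of the mitotic kinases 6 of 11 tested genes fell (median log2 fold change -0.68), of the mitotic kinesins 8 of 10 (-1.22), of the cyclins and anaphase-promoting complex 9 of 10 (-1.21) and of the kinetochore genes 5 of 14 (-0.14). Of 19 tested G1/S and replication genes none fell and 5 rose (0.40), and in TruSeq all 21 rose (0.63). With Mitoxantrone 20 of the 21 G1/S genes rose in TruSeq and with Bortezomib 13, while with Crizotinib 15 of the 21 fell and none rose (-0.31). Of the p53 targets, Idarubicin in PLATE-Seq raised 1 of 4 tested and Bortezomib 2 of 4, where 0.850% and 2.94% of all genes rose. Of the 15 tested in TruSeq, 6 rose and 3 fell with Idarubicin, 6 rose and 4 fell with Bortezomib, and 5 rose and 2 fell with Mitoxantrone. Over all genes in TruSeq, 18.9% rose and 18.4% fell with Idarubicin, 21.3% and 19.6% with Bortezomib and 15.6% and 15.1% with Mitoxantrone. With Crizotinib 21.6% rose and 20.6% fell. The p53 counts are therefore only a description.

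In U87 cells, 37 of the 40 genes had enough PLATE-Seq counts to test in 184 compounds (all but KIFC1, DEPDC1B and PIF1). This gives 6808 pairs of a gene and a compound. Each compound was compared with the 4 DMSO wells of its set, so that all compounds of a set share their controls. Of the pairs 353 (5.19%) were called lower and 11 (0.162%) higher. In the first set 6.90% of the members' pairs were lower, where 0.905% of all pairs of a gene and a compound were lower and 0.577% higher. In the second set 3.47% were lower, where 0.463% of all pairs were lower and 0.449% higher. At least 1 gene fell with 59 compounds and at least 10 with 16, while 120 compounds had no called gene.

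Few wells stand behind each of these calls. Genes named for a compound below were mostly picked by smallest p among its members. That their wells lie apart from the DMSO wells follows in large part from this choice and is only a description. The share of all genes without such overlap is not given for U87. With only 1 well per compound, the share of lower pairs was 2.54% when the first well of each compound was left out and 1.91% when the second was, the compounds with at least 1 gene lower came to 34 and 29, and those with at least 10 to 8 and 6. The 15 compounds with a well of low depth held many calls, and without them 269 of 6253 pairs were lower and 10 higher. The 11 higher pairs depended on the method, with 1.57% of pairs in limma voom, and came to 7 without DMSO replicate 4 of the first set.

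**Figure D3:**
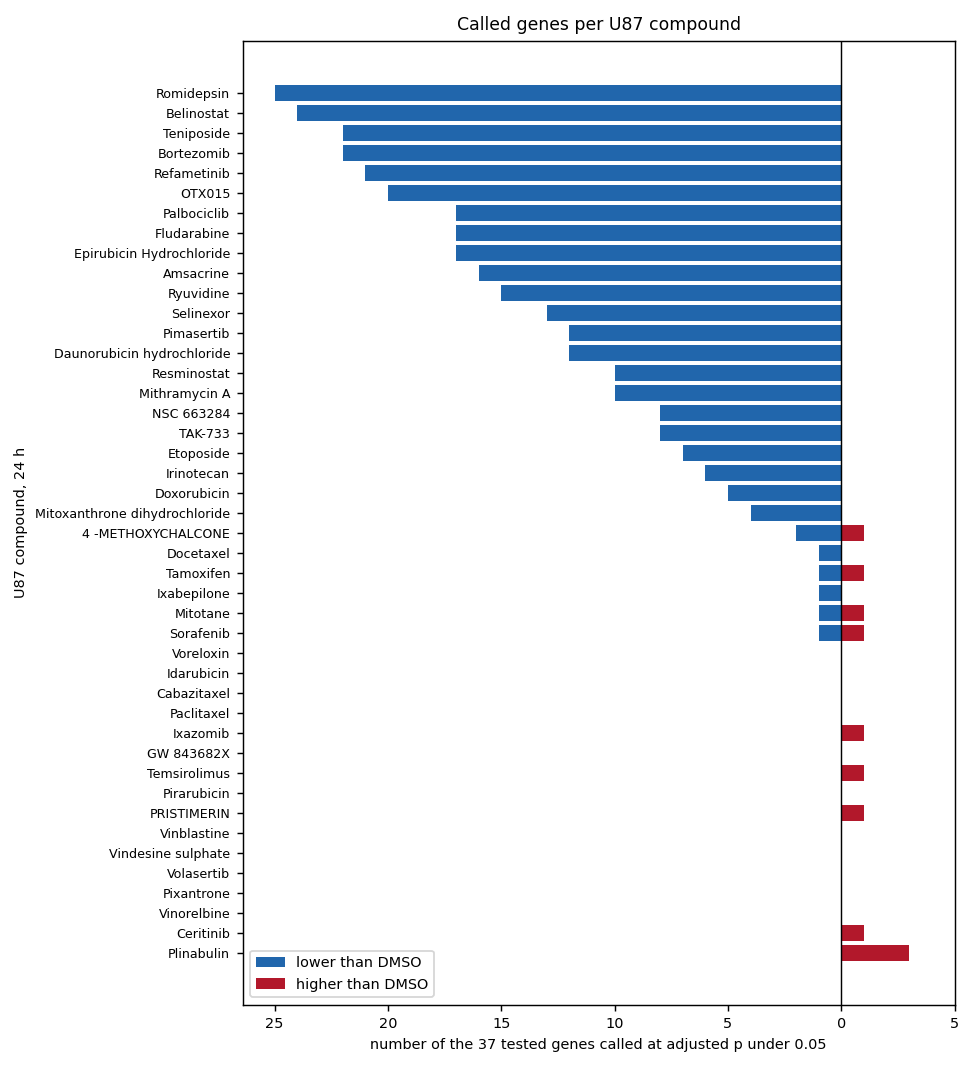
Number of the 37 tested genes called lower (left of 0) or higher (right of 0) at an adjusted p under 0.05 for each U87 compound with at least 5 lower or 1 higher, or in the tubulin, PLK or topoisomerase II classes. Romidepsin leads with 25 lower, and Plinabulin is the compound with the most higher, 3.

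The compounds with the most lower genes were of several mechanisms. Romidepsin (0.697 µM), a histone deacetylase inhibitor, lowered 25 of 37 genes, with a median log2 fold change of -1.73 and 14.8% of all genes lower. CKAP2L was at 18.7 and 8.22 CPM in its 2 wells against 103.3, 86.6, 166.6 and 200.1 CPM in the DMSO wells (-3.20 ± 0.45, adjusted p 1.30e-10). PRC1 was at 3.73 and 8.22 CPM against 71.9, 90.7, 64.6 and 133.97 CPM (-3.84 ± 0.58, adjusted p 1.38e-09). For both genes, which were picked by smallest p, each Romidepsin well was below every DMSO well. The count was 17 and 14 without either of its wells, and 1 of them was of low depth.

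Belinostat (3.5 µM), of the same class, lowered 24 genes (median -1.90, 11.2% of all genes lower), with both wells of low depth, and 8 without the second well. Its PRC1 was at 5.41 and 19.3 CPM (-2.86 ± 0.55, adjusted p 1.13e-05) and its DEPDC1 at 10.8 and 4.83 CPM against 60.6, 51.6, 44.2 and 116.6 CPM (-3.01 ± 0.63, adjusted p 5.39e-05). Bortezomib (0.01 µM) lowered 22 genes, with a median of -1.37 and 6.15% of all genes lower. Its MKI67 was at 10.2 and 27.3 CPM against 107.8, 134.1, 117.3 and 196.6 CPM (-2.80 ± 0.39, adjusted p 5.26e-10). The wells of these compounds did not overlap the DMSO wells in the genes named, which were picked by smallest p. Without the first or second well Bortezomib had 13 and 11 genes lower.

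Palbociclib (0.1 µM), a CDK4 and CDK6 inhibitor, lowered 17 genes (median -1.55) where only 1.09% of all genes were lower. CDCA3 was at 3.605 and 2.59 CPM against 92.1, 113.4, 35.7 and 59.2 CPM (-4.38 ± 0.56, adjusted p 1.57e-11). NUSAP1 was at 37.9 and 20.7 CPM against 175.2, 193.9, 166.6 and 191.4 CPM (-2.51 ± 0.36, adjusted p 3.56e-09). TROAP was at 10.8 and 3.88 CPM against 96.6, 88.7, 61.2 and 48.7 CPM (-3.23 ± 0.49, adjusted p 2.16e-08). All 3 genes, picked by smallest p, lay below every DMSO well, and 17 and 10 genes were lower without the first and the second well.

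Refametinib (2.289 µM), a MEK inhibitor, lowered 21 genes (median -1.96, 3.10% of all genes lower) and OTX015 (3.909 µM), a BET bromodomain inhibitor, 20 (median -1.70, 4.42% of all genes lower). With Refametinib CKAP2L was at 4.31 and 5.10 CPM against 66.0, 120.4, 28.3 and 61.3 CPM in the DMSO wells of the second set (-3.67 ± 0.63, adjusted p 1.06e-06). With OTX015 PRC1 was at 21.0 and 9.97 CPM against 116.5, 143.05, 77.3 and 130.1 CPM (-2.78 ± 0.52, adjusted p 1.14e-05), and ASPM at 8.74 and 0 CPM against 67.3, 80.7, 40.2 and 55.0 CPM. Both calls rested on the pair of wells: without the first well 1 gene was lower with Refametinib and 5 with OTX015, and without the second 10 and 12. Fludarabine (3.2 µM), a nucleoside analogue, lowered 17 genes (median -1.43), but 16.4% of all genes were lower, both wells were of low depth, limma voom called 4, and 8 were lower without the second well.

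**Figure D4:**
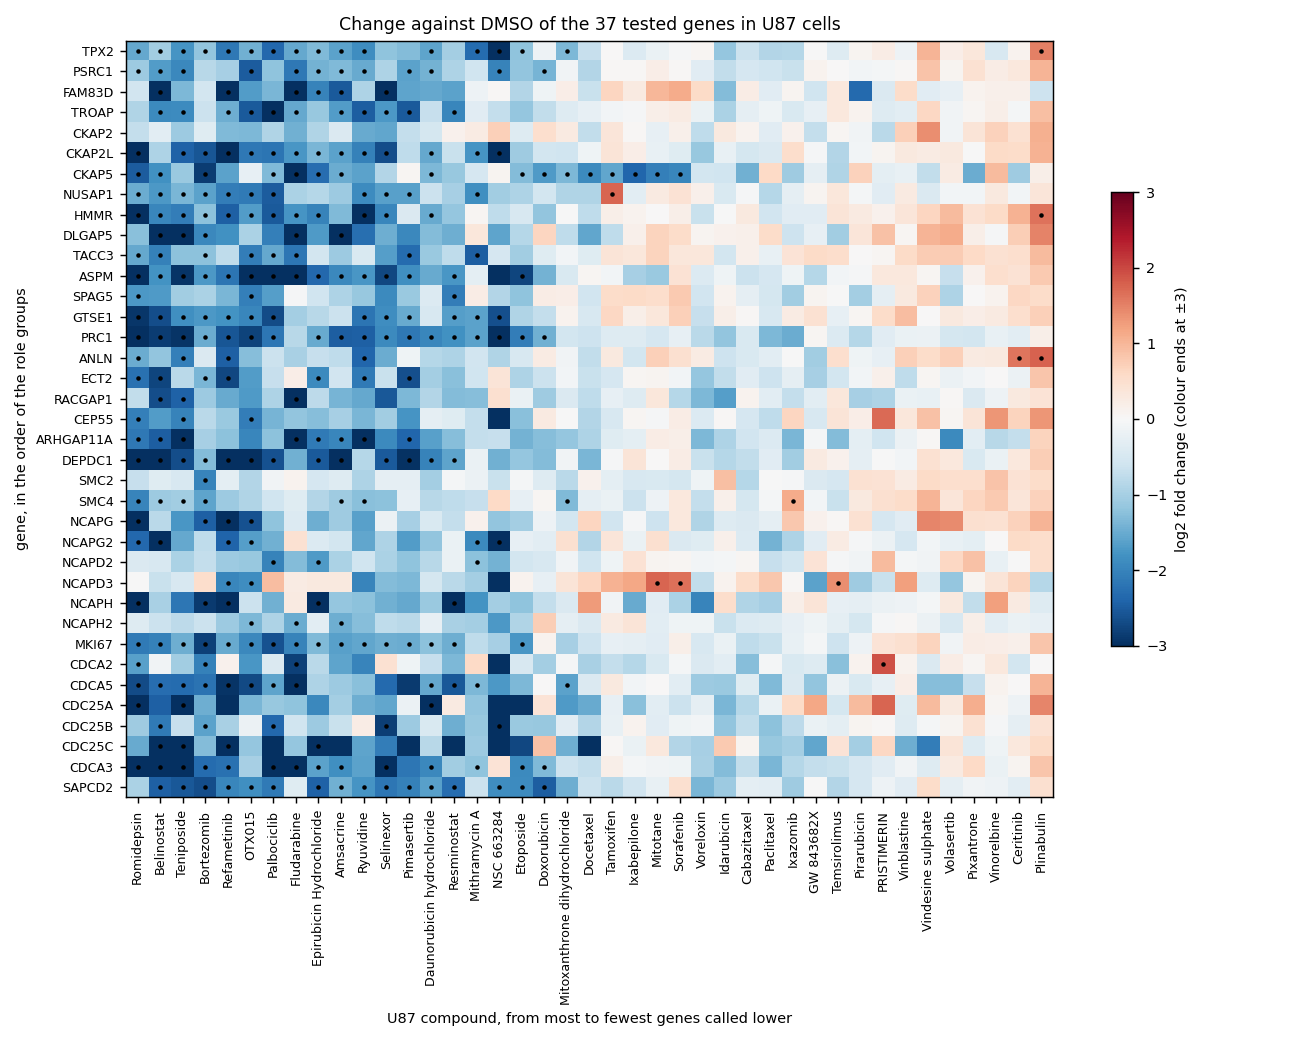
Log2 fold change against DMSO of the 37 tested genes (rows) for the named U87 compounds (columns), with the colour scale ending at -3 and 3 and dots for calls at an adjusted p under 0.05. In the columns of Romidepsin, Belinostat and Teniposide all 37 genes are below 0, in that of Refametinib 36 are, and the row of CKAP5 has dots in many columns.

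The 11 topoisomerase II poisons were given at doses that differ, so their values are set side by side. Of the 83 lower pairs Teniposide (0.629 µM) held 22 (median log2 fold change -1.85, 1.89% of all genes lower), Epirubicin (0.162 µM) 17 (-1.33, 1.16%), Amsacrine (1.8 µM) 16 (-1.32, 1.03%), Daunorubicin (0.068 µM) 12 (-1.11, 0.823%), Etoposide (3 µM) 7 (-1.06, 0.666%), Doxorubicin (0.078 µM) 5 (-0.49, 4.01%, both wells of low depth) and Mitoxanthrone (0.012 µM) 4 (-0.43, 0.593%). Idarubicin (0.024 µM), Voreloxin (1.226 µM), Pirarubicin (0.008 µM) and Pixantrone (7.11 µM) had 0 called in edgeR. Their medians were -0.46, -0.55, -0.08 and 0.135, so those of Idarubicin and Voreloxin were near those of Doxorubicin and Mitoxanthrone. At an unadjusted p under 0.05 these 4 had 11, 6, 2 and 1 lower, and limma voom called 1, 2, 0 and 0 lower.

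With Teniposide CDCA3 was at 9.34 and 6.48 CPM (-3.25 ± 0.51, adjusted p 1.61e-07) and CKAP2L at 9.34 and 47.0 CPM (-2.43 ± 0.39, adjusted p 2.81e-07), all below the DMSO wells. With Epirubicin SAPCD2 was at 17.6 and 15.0 CPM against 60.6, 107.2, 81.6 and 109.6 CPM (-2.43 ± 0.45, adjusted p 6.76e-05). With Amsacrine PRC1 was at 15.7 and 16.2 CPM (-2.48 ± 0.48, adjusted p 1.02e-04), and with Daunorubicin at 14.3 and 35.2 CPM (-1.95, adjusted p 1.77e-03). With Etoposide MKI67 was at 37.9 and 45.1 CPM (-1.75). With Mitoxanthrone SMC4 was at 84.7 and 125.4 CPM against 179.7, 239.2, 387.7 and 436.7 CPM (-1.33 ± 0.31, adjusted p 7.82e-03). Each of these wells lay under the lowest DMSO well of its gene, for genes picked by smallest p.

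With 1 well per compound the counts of most were lower. Without the first and second well Teniposide had 17 and 10 lower, Epirubicin 10 and 3, Amsacrine 4 and 4, Daunorubicin 5 and 1, Etoposide 7 and 2, Doxorubicin 2 and 3 and Mitoxanthrone 3 and 0. Leaving out 1 DMSO well gave at least 10 for Epirubicin (DMSO replicate 2), 8 for Daunorubicin and 2 for Mitoxanthrone (both DMSO replicate 1) and 3 for Doxorubicin (DMSO replicate 2).

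Tubulin binders, which stop cells in mitosis, gave few calls. Plinabulin (1.567 µM) was the compound with the most higher genes, 3, where 0.586% of all genes were higher, and 33 of the 37 genes had a fold change above 0 (median 0.71). TPX2 was at 414.3 and 292.4 CPM against 153.99, 202.5, 86.3 and 101.3 CPM (1.51 ± 0.37, adjusted p 8.47e-03), ANLN at 135.9 and 111.2 CPM against 42.7, 58.1, 20.8 and 40.0 CPM (1.78 ± 0.45, adjusted p 0.0125) and HMMR at 173.4 and 92.5 CPM against 51.8, 56.7, 34.2 and 33.8 CPM (1.63 ± 0.44, adjusted p 0.0301). All wells of the 3 genes, picked by smallest p, were above every DMSO well. The count was 3 and 0 without the first and second well, 1 without DMSO replicate 5, and 13 in limma voom.

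Docetaxel (6.4 µM) and Ixabepilone (0.000518 µM) each had 1 lower gene, CKAP5, and the Docetaxel call was lost without either well or without DMSO replicate 1. Paclitaxel (0.0068 µM), Cabazitaxel (0.000961 µM), Vinblastine (0.0084 µM), Vinorelbine (0.0021 µM) and Vindesine (0.023 µM) had 0 called in edgeR. At an unadjusted p under 0.05 they had 7, 4, 0, 0 and 1 lower and 0, 0, 2, 5 and 5 higher. limma voom called none lower in these 5, and 4 higher with Vinorelbine and 6 with Vindesine. The medians over the 37 genes were -0.42, -0.44, 0.05, 0.18 and 0.06. The PLK inhibitors had 0 called: Volasertib (1.328 µM) had 2 lower and 3 higher at an unadjusted p under 0.05 and 0 lower and 2 higher in limma voom, and the other PLK inhibitor (1.0492 µM) had 1 lower at an unadjusted p under 0.05 and 0 in limma voom. The CDC25 inhibitor NSC 663284 (7.7913 µM) lowered 8 genes, where 5.03% of all genes were lower, with both wells of low depth. Without the first well 0 were lower, and without DMSO replicate 7 there were 5. None of CDC25A, CDC25B and CDC25C was among its 3 genes of smallest p, which were PRC1, CKAP2L and TPX2. CDC25B had its lowest log2 fold change over the 184 compounds with NSC 663284 (-7.89), and CDC25A and CDC25C had theirs with other compounds. Several members outside the CDC25 genes also had their lowest value with it, such as NCAPG2 (-7.87), NCAPD3 (-7.72) and CDCA2 (-7.51). Its wells held only 51889 and 43009 counts, so such values rest on very few reads and are not particular to CDC25B.

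The summed level of the 40 genes was read in single wells, without a test. In the first set the DMSO wells were at 2533 and 2485 CPM on one plate and 2819 and 3348 CPM on the other. The wells on these plates were at 788 and 880 CPM with Romidepsin, 905 and 1015 CPM with Palbociclib and 2140 and 2164 CPM with Idarubicin. In the second set the DMSO wells were at 2495 and 3004 CPM on one plate and 2216 and 2425 CPM on the other. The wells were at 856 and 500.1 CPM with OTX015, 2856 and 1960 CPM with Volasertib and 4750 and 3483 CPM with Plinabulin. With Vindesine they were at 3774 and 3141 CPM, and the wells of Plinabulin and Vindesine lay above all DMSO wells of their set. With Vinorelbine, in the first set, they were at 3182 and 3753 CPM, each above the DMSO wells of its own plate. Other tubulin binders of the first set lay below the DMSO wells of their own plates. These were Paclitaxel (1993 and 2269 CPM), Docetaxel (1737 and 2098.5 CPM), Cabazitaxel (1648.5 and 2187 CPM) and Ixabepilone (1861 and 2593 CPM). Vinblastine was at 2892 and 3301 CPM, the second between the DMSO wells of its plate.

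The genes differed in how often they were called. Spindle genes were lower in 6.91% of 2576 pairs, midzone genes in 4.66%, condensin subunits in 2.17%, the chromosome surface group in 6.16%, mitotic entry genes in 3.53% and SAPCD2 in 12.5%. CKAP5 was lower with 38 compounds, SAPCD2 with 23, MKI67 with 19, TPX2 and PRC1 with 18 each and ASPM with 17. At the other end CKAP2 and SMC2 were lower with 1 compound each. SMC2 and SMC4 were themselves lower in DMSO than in untreated wells, as given below, and with both kinds of well as control SMC2 was lower with 8 compounds and SMC4 with 16, none of them higher. CKAP2 was then lower with 1 and higher with 2, and PRC1 lower with 17. ANLN and NCAPD3 were higher with 3 compounds each and TPX2, HMMR, NUSAP1, SMC4 and CDCA2 with 1 each.

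Outside Plinabulin, the higher pairs were single genes. Tamoxifen gave NUSAP1 at 669.6 and 442.6 CPM, above every DMSO well (1.75 ± 0.29, adjusted p 1.29e-05). NCAPD3 was called higher with Mitotane (132.3 and 46.8 CPM), Sorafenib (104.1 and 65.1 CPM) and Temsirolimus (78.9 and 49.4 CPM) against 24.7, 26.8, 39.1 and 13.9 CPM. The untreated wells of the first set were at 28.9, 53.5, 42.2 and 36.3 CPM for NCAPD3. With both kinds of well as control NCAPD3 was higher with 1 compound and lower with 1. SMC4 was called higher with Ixazomib (516.4 and 764.1 CPM), ANLN with Ceritinib (86.5 and 116.5 CPM) and CDCA2 with PRISTIMERIN (114.7 and 77.1 CPM). All but the Tamoxifen call were lost without 1 of the DMSO wells, and each of the 7 without one or the other of its compound wells. The ninth compound with a higher gene, named after its value was seen, was 4 -METHOXYCHALCONE with ANLN (176.6 and 71.9 CPM).

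CKAP5, the microtubule polymerase, had control wells that spread widely, and their part in its calls was not tested. In the first set it was at 303.2, 68.1, 197.3 and 76.6 CPM in the DMSO wells, 93.4, 43.1, 90.2 and 76.1 CPM in the untreated wells and at a median of 64.6 CPM over the compound wells. In the second set the DMSO wells were at 91.9, 32.6, 56.5 and 18.8 CPM and the compound wells had a median of 31.9 CPM. The median log2 fold change of CKAP5 over the 184 compounds was -1.02. With DMSO and untreated wells together as control it was -0.66, with 22 compounds lower and 1 higher. Without CKAP5, 315 pairs were lower, and 33 compounds had at least 1 lower gene in place of 59, while those with at least 10 remained 16.

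**Figure D5:**
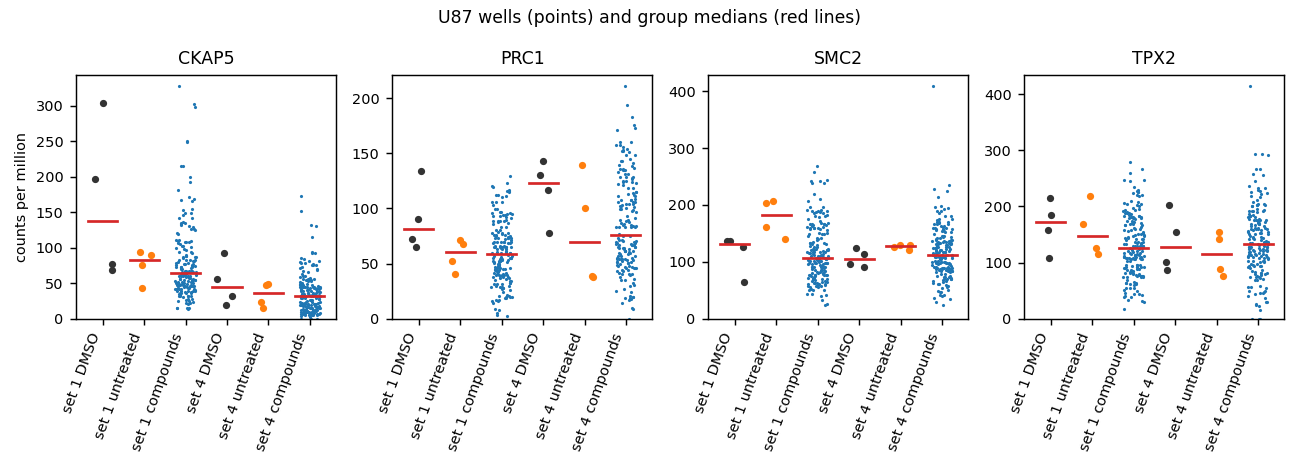
CPM of CKAP5, PRC1, SMC2 and TPX2 in the DMSO, untreated and compound wells of both U87 sets (points), with medians in red. The first set's CKAP5 DMSO wells spread from 68.1 to 303.2 CPM, and the compound wells have a median of 64.6 CPM.

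The 8 DMSO wells and 8 untreated wells were also compared with each other, with the plate as a term. Of the 37 genes SMC2 and SMC4 were lower and PRC1 was higher in DMSO, where 1.72% of the 8626 genes tested were lower and 1.17% higher. SMC2 was at 63.9 CPM in 1 DMSO well and at 125.3 CPM or more in the other 3, and at 141.01, 160.4, 202.7 and 206.6 CPM in the untreated wells of the first set. In the second set it was at 90.6, 124.6, 114.5 and 96.3 CPM with DMSO and 128.8, 126.7, 129.3 and 121.7 CPM untreated (-0.51 ± 0.13, adjusted p 0.0208). All first-set DMSO wells lay below the untreated wells, and in the second set 1 DMSO well lay above the lowest untreated well. SMC4 had -0.38 ± 0.11 (adjusted p 0.0354), PRC1 0.61 ± 0.17 (adjusted p 0.0416) and CKAP5 0.81 ± 0.39 (adjusted p 0.35). Without the plate term 0 genes were called in either direction.

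Across the 184 compounds, the log2 fold changes of 2 members had a median Pearson r of 0.45 over the 666 pairs of genes, with a range of -0.24 to 0.79. The compounds of a set share their DMSO wells and plates, so this is a description. The pair most alike was GTSE1 and MKI67 (r = 0.79), and the median r was 0.55 within the spindle group, 0.49 within the midzone group and 0.34 within condensin. MKI67 had the highest median r with the others (0.61) and CKAP5 the lowest (0.13).

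A few drugs were used in both lines, at other doses and for another time. The tests also differ, with 12 wells against 12 in BT20 PLATE-Seq and 2 against 4 in U87, so the counts are only set side by side. Idarubicin had 22 members lower at 0.084 µM after 6 h in BT20 (1.93% of all genes lower) and 0 at 0.024 µM after 24 h in U87 (0.133%). Mitoxantrone had 16 at 0.18 µM in BT20 (1.05%) and 4 at 0.012 µM in U87 (0.593%). Bortezomib had 5 at 0.044 µM in BT20 (1.99%) and 22 at 0.01 µM in U87 (6.15%). In BT20 TruSeq each of these drugs had 34 members lower, where 18.4%, 15.1% and 19.6% of all genes were lower. Over the tested genes, the median log2 fold changes of these drugs were -0.80, -0.67 and -0.29 in BT20 PLATE-Seq. In U87 they were -0.46, -0.43 and -1.37 in the same order. Crizotinib and Gemcitabine had median log2 fold changes of 0.07 and 0.12 over the tested genes in U87, at 0.181 µM and 0.0085 µM.

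Other lists of cell cycle genes were lower in U87 in shares near those of the 40 genes. The shares of pairs called lower were 4.76% for mitotic kinases, 4.39% for mitotic kinesins, 5.28% for cyclins and the anaphase-promoting complex, 5.94% for kinetochore genes and 4.55% for G1/S and replication genes. They were 0.803% for regulators of mitotic genes. Of the p53 targets 0.408% of pairs were lower and 4.94% higher. Over all genes 0.68% of pairs were lower and 0.512% higher.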

How the data were processed

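The authors assigned PLATE-Seq reads to wells by barcode, aligned them with BWA to hg19 transcripts and deposited raw counts of uniquely mapped sense-strand reads per gene symbol; how the deposited TruSeq counts were made is not given in the sources used here. Groups were taken from the labels. Spike-ins were left out. R 4.3.3 and edgeR 4.0.16 gave quasi-likelihood tests of the counts after TMM normalization and filterByExpr. In U87 a mean of at least 5 counts was required and a gene-wise plate offset (0.5 counts added) was used, and p-values were adjusted within a compound. DESeq2 1.42.0 and limma 3.58.1 were alternatives. Fold changes are log2, and CPM is the count over the column total times 1000000. Procedures were tested on simulated data. Runs of 8 BT20 wells are not stated to be batches, and were a block only as an alternative. Members, lists and classes were chosen with earlier results of these data known. Named were, per BT20 drug, the called members, with values for up to 10 by smallest p and the most abundant member of each role, or the 2 of smallest p, and, in U87, the 8 compounds with the most lower and higher members, the tubulin, PLK, topoisomerase II and CDC25 classes, and up to 3 members each. Gene overlaps are from GENCODE on GRCh37 and promoters from RefSeq on GRCh38.p14. Counting error grows as counts fall, and depth limits low genes.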

Additional observations from a re-analysis of the deposited data

Results flagged for a closer look

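Among 24 groups of 4 to 10 control wells examined for a single well far from the rest, 1 was picked out, and chance gives about 1 in 20. SMC2 in the DMSO wells of the first U87 set was at 63.9 CPM in 1 well and at 125.3 CPM or more in the other 3. The gap of the lowest well to its neighbour was 0.839 of the whole range. The comparison of DMSO with untreated wells includes this well.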

How the results depend on the processing

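With a replicate block of runs of 8 BT20 wells, 22 members were lower with Idarubicin, 15 with Mitoxantrone and 5 with Bortezomib, and 1 was higher with Crizotinib. Without the plate as a replicate block, U87 had 261 lower and 8 higher pairs, and DMSO against untreated wells had 0 and 0 called. Leaving out 1 pool at a time gave 0 to 4 lower and 0 to 7 higher members in TruSeq with Albendazole, and 0 to 4 lower and 0 to 2 higher with Aprepitant, where no filter on low counts gave 1 higher. The main shares of U87 pairs were 5.19% lower and 0.162% higher. Leaving out 1 well gave 1.91% to 5.32% lower and 0.0588% to 0.191% higher, 6 to 17 compounds with at least 10 lower genes and 29 to 67 with at least 1, and without CKAP5 the last was 33. The share lower was 6.77% with limma voom, 6.24% with RLE normalization, 5.96% with a compound's and the DMSO wells alone, 5.76% with both kinds of control, 4.54% without wells of low depth and 3.98% adjusted over all compounds of a set. The share higher was 1.57%, 0.323% and 0.706% under the first 3 of these. The cause of these changes was not tested. With Crizotinib in PLATE-Seq, uncalled log2 fold changes turned sign, PRC1 to 0.001 with the replicate block and MKI67 to 0.005 without wells of low depth. Of the counts and values that answer a comparison, 436 kept their direction and size and 28 moved. CPM of genes with few reads per well are the least precise, and a U87 call rests on 2 wells.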
